A study of Homo sapiens with 25 samples.

Results

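Aminoacyl-tRNA synthetases are described here in DND-41, an established line from human T-cell leukemia, as histidine was lowered in its medium. The 33 genes were taken by symbol from a list of synthetases that leaves out the histidyl enzymes, and they are 33 of the 31919 genes in the deposited table. Of these genes, 18 encode cytosolic enzymes and 15 encode mitochondrial ones. Cells were kept in 100%, 50%, 25% or 12.5% of the medium's histidine and collected on day 6 or day 9, and cells without histidine were collected on day 6. RNA was sequenced from 25 libraries, 3 in each group apart from 25% on day 6 and 50% on day 9, which have 2. No genetic change or drug is named for any group, and the 100% libraries of the same day are the controls. Whether replicates came from separate cultures is not stated in the labels, and p-values here reflect the spread between these libraries alone, which may be technical.

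These enzymes join each amino acid to its own tRNAs, which carry it to the ribosome. For most amino acids a pair of nuclear genes encodes the cytosolic and the mitochondrial enzyme, while GARS1 and KARS1 supply both compartments from 1 gene each, and EPRS1 charges both glutamate and proline in the cytosol. Several cytosolic enzymes sit together in the multi-synthetase complex. When an amino acid runs short, its uncharged tRNAs activate the kinase GCN2, translation of the transcription factor ATF4 rises, and ATF4 is known to drive many cytosolic synthetase genes together with amino acid transporters.

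Library totals of normalized counts ran from 13574800 to 16097400. The T-lineage genes were expressed, CD3E between 11530.2 and 18477 and RAG1 between 10836 and 25645, apart from PTCRA, which was listed at 0 in 4 libraries and reached 8.14 at most. Summed T-lineage genes were 90196 to 93266 at 100% on day 6, 80992 to 86603 at 12.5% and 65634 to 76138 without histidine, and 78978 to 88631 at 100% and 71617 to 78686 at 12.5% on day 9. Summed B-lineage genes, nearly all CD79A with PAX5 at 0 in 15 libraries, also moved with the groups. They were 15269.8 to 16901 at 100%, 19331 to 21275 at 25%, 11102 to 16935 at 12.5% and 9674 to 13269 without histidine on day 6, and 14625 to 18131 at 100%, 18984 to 22795 at 25% and 9716 to 11511 at 12.5% on day 9. The myeloid list summed to at most 39.7 and the erythroid list to at most 19.0 in any library. Summed KRT8, KRT18 and KRT19 exceeded 100 in 6 libraries, namely 100% on day 6 replicates 1 and 2, 50% on day 6 replicates 1 and 2, and 25% on day 9 replicates 1 and 3, with a highest value of 1406. Leaving those out leaves 1 library each at 100% and at 50% on day 6 and at 25% on day 9. The variation of these groups has to be taken from the others, so calls lost in that way were tested on fewer libraries. The comparison of 12.5% with 100% on day 9 holds none of them. The 5.8S ribosomal RNA count was 74.8 to 88.2 at 12.5% on day 6 against 153 to 1181 in the day 6 controls, and the part of these measures in the results was not tested.

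Synthetase transcripts did not move together, and both compartments held genes that rose and genes that fell. Without histidine on day 6, 4 of 18 cytosolic genes rose and 4 fell, and 3 of 15 mitochondrial genes rose and 4 fell. At 12.5% on day 6 the cytosolic counts were 2 higher and 6 lower, and the mitochondrial counts 1 and 7. At 12.5% on day 9 they were 1 and 5, and 1 and 4. At 25% on day 6 they were 3 and 3, and 1 and 6, and at 25% on day 9 they were 3 and 6, and 1 and 5. The calls are from limma on log2(normalized count + 1) at an adjusted p under 0.05, and within a day these comparisons share their 100% libraries. In bulk RNA, fewer cells that express a gene and less of its RNA per cell cannot be told apart.

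Over all 18799 genes tested the same rule called 29.8% without histidine (13.3% rises and 16.5% falls), 27% at 12.5% (11.7% and 15.3%) and 13.7% at 25% (6.79% and 6.92%) on day 6. On day 9 it called 20.8% at 12.5% (9.35% and 11.5%) and 18.2% at 25% (9.4% and 8.76%). The synthetases were called in 45.5%, 48.5% and 39.4% of cases on day 6, and in 33.3% and 45.5% on day 9. All 33 genes reached a normalized count of 10 in each of the 25 libraries. Among genes that reached 50 in at least 2 libraries the background was 43.4%, 39.8% and 23.2% on day 6 and 32.2% and 29.1% on day 9. In that same fit, with its higher minimum, the synthetases were called in 45.5%, 48.5% and 45.5% of cases on day 6 and in 36.4% and 48.5% on day 9. The share was nearest to its background without histidine and at 12.5% on day 9 and was further above it in the other comparisons, a difference that was not tested. The median log2 change of the cytosolic genes was 0.05 without histidine, -0.15 at 12.5% and -0.07 at 25% on day 6, and -0.14 and -0.15 at 12.5% and 25% on day 9. For the mitochondrial genes it was 0.01, -0.26, -0.53, -0.22 and -0.22 in that order. Over all genes it lay between 0.00 and 0.04. How many synthetases rose or fell moved with the scaling. After upper-quartile rescaling the median of all genes at 12.5% on day 6 was 0.13, 55.6% of all calls there were rises in place of 43.3%, and 5 synthetases rose and 9 fell. Quantile normalization gave 6 and 11. Without histidine the synthetase counts were 9 and 5 and 10 and 5 under these scalings, at 12.5% on day 9 they were 4 and 9 under both, and no called synthetase changed direction.

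**Figure D1:**
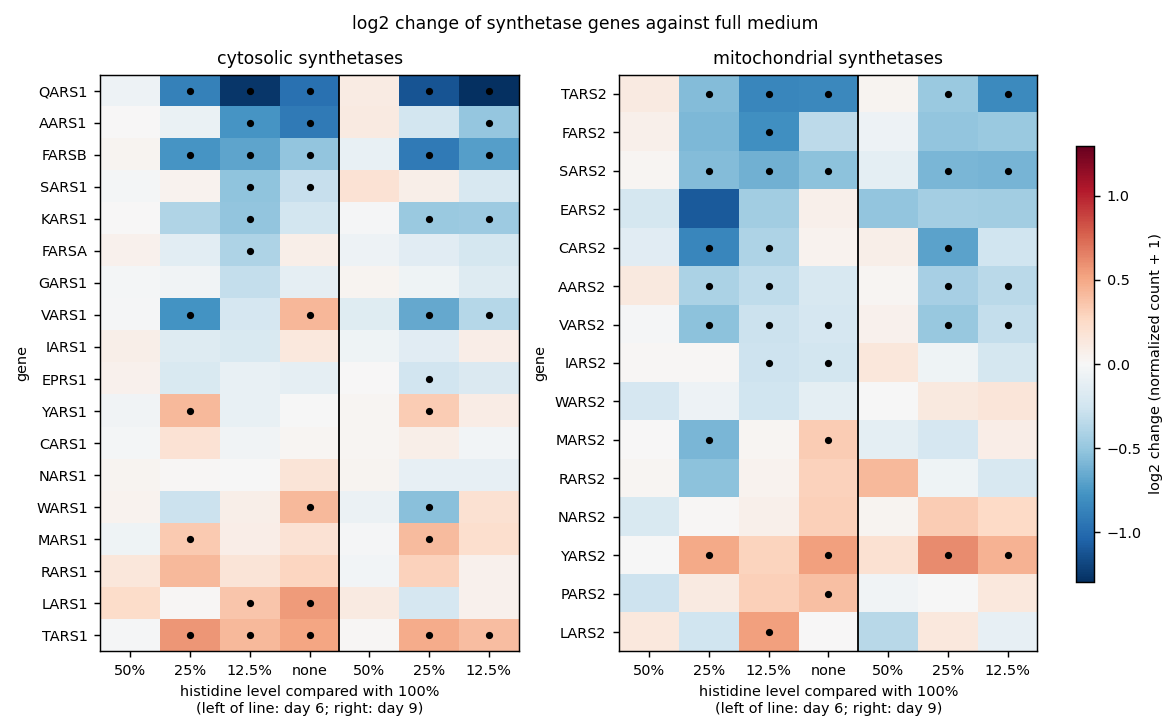
Log2 changes of the 33 synthetase transcripts (rows, cytosolic in the left panel and mitochondrial in the right) against 100% histidine of the same day in 7 comparisons (columns), colored by direction and with a dot for calls at an adjusted p under 0.05. QARS1, FARSB, TARS2, SARS2 and VARS2 are marked as lower and TARS1 as higher at every level from 25% down, and no gene is marked at 50%.

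Among cytosolic genes QARS1, which encodes glutaminyl-tRNA synthetase, a member of the multi-synthetase complex (chr3:49095932-49104757 in GRCh38.p14), had the largest falls. Its normalized counts were 3872, 3616 and 3793 at 100% on day 6 and 2161 and 1944 at 25%. They were 1505, 1397 and 1809 at 12.5% and 1756, 1985 and 2047 without histidine. Every restricted library at 25% or less lay below every control of its day. The log2 changes were -0.87 ± 0.12 (SE, adjusted p = 2.04e-05) at 25%, -1.27 ± 0.11 (SE, adjusted p = 1.52e-08) at 12.5% and -0.96 ± 0.11 (SE, adjusted p = 1.9e-07) without histidine. On day 9 the counts were 3985, 3548 and 3877 at 100%, 1824, 1712 and 1719.9 at 25% and 1796, 1335 and 1536 at 12.5%. The groups again stood apart, with log2 changes of -1.12 ± 0.11 (SE, adjusted p = 9.93e-08) and -1.30 ± 0.11 (SE, adjusted p = 1.09e-08).

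The phenylalanyl enzyme is a tetramer of 2 kinds of subunit. Its subunit genes differed in the comparisons that called them, and the difference between the 2 genes was not tested. FARSB, the beta subunit (chr2:222566899-222656092), had counts of 933, 1016 and 1028 at 100% on day 6, 597 and 570.3 at 25%, 576, 569 and 713 at 12.5% and 615, 719 and 767 without histidine. Day 9 counts of FARSB were 1027, 1463 and 1235 at 100%, 539.6, 664 and 759.5 at 25% and 807, 736 and 709 at 12.5%. No restricted library at these levels reached its day's controls. FARSB fell, with log2 changes of -0.76 ± 0.16 (SE, adjusted p = 0.00162) at 25%, -0.69 ± 0.14 (SE, adjusted p = 0.000748) at 12.5% and -0.51 ± 0.14 (SE, adjusted p = 0.00735) without histidine, and -0.92 ± 0.14 (SE, adjusted p = 4.62e-05) and -0.71 ± 0.14 (SE, adjusted p = 0.000681) at 25% and 12.5% on day 9. FARSA, the alpha subunit, fell only in the 12.5% comparison on day 6 (log2 change -0.40 ± 0.11 SE, adjusted p = 0.00931), a call that was not reached without 100% replicate 3 (-0.34). The ratio of FARSA to FARSB counts was 2.04 ± 0.21 (SD, n = 3) at 100% on day 6, 3.15 ± 0.10 (n = 2) at 25%, 2.48 ± 0.22 (n = 3) at 12.5% and 3.06 ± 0.28 (n = 3) without histidine. On day 9 it was 1.99 ± 0.19 (n = 3) at 100%, 3.43 ± 0.57 (n = 3) at 25% and 2.78 ± 0.14 (n = 3) at 12.5%. The ratio is of counts not corrected for transcript length, so it is read between libraries only.

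AARS1, the alanyl enzyme (chr16:70252298-70289506), fell at 12.5% on both days and without histidine, and did not pass at 25%. Counts on day 6 were 5957, 5444 and 5722 at 100%, 5687 and 5061 at 25%, 2872, 3581 and 3634 at 12.5% and 2816, 3246 and 3039.6 without histidine. The 12.5% and no-histidine libraries lay well below all others of that day. The log2 change was -0.77 ± 0.10 (SE, adjusted p = 7.11e-06) at 12.5%, -0.91 ± 0.10 (SE, adjusted p = 2.49e-07) without histidine and -0.09 ± 0.11 (SE, adjusted p = 0.702) at 25%. Its day 9 counts were 7104, 6304 and 6659.9 at 100% and 4811, 4924 and 4461 at 12.5%, a log2 change of -0.50 ± 0.10 (SE, adjusted p = 0.00101) with no overlap. Between 25% and 12.5% on day 6, a comparison chosen after the values were seen, AARS1 was higher at 25% by 0.68 ± 0.11 (SE, adjusted p = 0.000289). SARS1, the seryl enzyme, was also lower at 12.5% and without histidine on day 6, with 6744, 6002 and 5956 at 100%, 6401 and 6488 at 25%, 3855, 4297 and 4870.4 at 12.5% and 4227, 5636 and 5449 without histidine. It fell, with a log2 change of -0.53 ± 0.11 (SE, adjusted p = 0.000958) at 12.5% and -0.30 ± 0.11 (SE, adjusted p = 0.0445) without histidine. KARS1, the lysyl enzyme, had 2751, 2623 and 2833 at 100% on day 6 and 1571, 2000.5 and 2244 at 12.5%, and fell, with a log2 change of -0.51 ± 0.13 (SE, adjusted p = 0.00381). KARS1 also fell on day 9, from 3164, 3363 and 3421 to 2615, 2235 and 2326 at 12.5%, a log2 change of -0.47 ± 0.13 (SE, adjusted p = 0.0087). The 12.5% groups of KARS1 lay below their controls on both days. At 25% KARS1 fell on day 9, from a mean of 3316 to 2376, a call lost without the keratin-rich libraries (-0.49). Without histidine, single libraries ended the call of SARS1 without 100% replicate 1, 2 or 3 or no-histidine replicate 1 (-0.33 to -0.17). Without the keratin-rich libraries SARS1 (-0.23, adjusted p = 0.368) and, at 12.5% on day 6, SARS1 (-0.46, adjusted p = 0.0652) did not pass. After upper-quartile and quantile scaling the fall without histidine did not pass (-0.22, adjusted p = 0.0812 and -0.18, adjusted p = 0.106).

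TARS1, the threonyl enzyme (chr5:33440696-33468091), was the cytosolic gene that rose at each level from 25% down. Its counts on day 6 were 3479, 3315 and 3305 at 100%, 3389, 3952 and 2752 at 50% and 5182 and 4866 at 25%. They were 4356, 4365 and 4807 at 12.5% and 4447, 5057 and 4909 without histidine. The 50% libraries spanned the controls, and all libraries below 50% lay above them. Log2 changes were 0.58 ± 0.12 (SE, adjusted p = 0.00132) at 25%, 0.42 ± 0.10 (SE, adjusted p = 0.00365) at 12.5% and 0.51 ± 0.10 (SE, adjusted p = 0.000466) without histidine. On day 9 the counts were 3771, 4727 and 3914 at 100%, 5419, 5895 and 5929 at 25% and 5713, 5472 and 5171 at 12.5%, with changes of 0.48 ± 0.10 (SE, adjusted p = 0.0017) and 0.40 ± 0.10 (SE, adjusted p = 0.00636).

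LARS1, the leucyl enzyme, which also reports leucine to mTORC1, rose at the lowest histidine levels on day 6. It had 2146, 2614 and 1933 at 100%, 3025, 2771 and 2747 at 12.5% and 3189, 3163 and 3425 without histidine, for log2 changes of 0.36 ± 0.13 (SE, adjusted p = 0.0432) and 0.56 ± 0.13 (SE, adjusted p = 0.00206). At 12.5% on day 9 its change was 0.06 ± 0.13 (SE, adjusted p = 0.823). MARS1, the methionyl enzyme, and YARS1, the tyrosyl enzyme, rose at 25%. MARS1 had 7788, 7114 and 7415 at 100% and 9374 and 9447 at 25% on day 6 (log2 change 0.34 ± 0.11 SE, adjusted p = 0.0339), and 7933, 8857 and 8742 and 11111, 11331 and 11562 on day 9 (log2 change 0.41 ± 0.10 SE, adjusted p = 0.00297). YARS1 had 6948, 6261 and 6405 and 8848 and 8626 on day 6 (log2 change 0.42 ± 0.13 SE, adjusted p = 0.0269), and 7529.6, 8298 and 8075 and 9708, 10053 and 10366 on day 9 (log2 change 0.33 ± 0.11 SE, adjusted p = 0.0407). In both genes all 25% libraries lay above the controls of their day. Part of the MARS1 locus overlaps DDIT3 on chromosome 12, and the strand setting of the counting is not given in the sources used here. Single libraries ended these calls: LARS1 without 100% replicate 1 or 3 or 12.5% replicate 1, 2 or 3 (0.26 to 0.39) at 12.5%, MARS1 without 100% replicate 2 or 3 or 25% replicate 2 or 3 (0.31 to 0.35) at 25% on day 6, and YARS1 without 100% replicate 2 or 3 or 25% replicate 2 or 3 (0.39 to 0.44) on day 6. On day 9 the YARS1 call ended without any 1 of the 6 libraries compared (0.29 to 0.36), and without the keratin-rich libraries MARS1 (0.34, adjusted p = 0.138) and YARS1 (0.45, adjusted p = 0.104) on day 6 and YARS1 (0.34, adjusted p = 0.189) on day 9 did not pass.

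VARS1, the valyl enzyme, was lower than the controls at 25% and higher without histidine, and WARS1, the tryptophanyl enzyme, was lower at 25% on day 9 and higher without histidine on day 6. VARS1 (chr6:31777518-31795752) had 2352, 2293 and 2321 at 100% on day 6, 1383 and 1326 at 25%, 1961, 2057 and 1989 at 12.5% and 2752, 3457 and 3226 without histidine. The 25% libraries were the lowest of that day and the no-histidine libraries the highest of these 4 groups. VARS1 fell, with a log2 change of -0.78 ± 0.13 (SE, adjusted p = 0.000308) at 25% and rose, with a log2 change of 0.43 ± 0.12 (SE, adjusted p = 0.00791) without histidine, and the direct comparison of no histidine with 25% gave 1.21 ± 0.13 (SE, adjusted p = 2.47e-07). VARS1 counts on day 9 were 2230.1, 3379 and 2845 at 100%, 1742, 1734 and 1783 at 25% and 2293, 2096 and 2059 at 12.5%, with changes of -0.66 ± 0.12 (SE, adjusted p = 0.000307) and -0.37 ± 0.12 (SE, adjusted p = 0.029). The 12.5% and 100% groups overlapped on day 9. WARS1, which is also an interferon-induced gene, had 3108, 3312 and 3271 at 100%, 2725 and 2592 at 25%, 3550.2, 3319.6 and 3322 at 12.5% and 3949, 4644 and 4369 without histidine on day 6. It rose, with a log2 change of 0.42 ± 0.10 (SE, adjusted p = 0.00161) without histidine. WARS1 counts on day 9 were 3669, 3855 and 3889 at 100%, 2424, 2641 and 2762 at 25% and 4653, 4242 and 4202 at 12.5%, and the gene fell at 25%, with a change of -0.55 ± 0.10 (SE, adjusted p = 0.000224). Its 12.5% libraries lay above the controls that day, at a change of 0.20 ± 0.10 (SE, adjusted p = 0.154), and 25% against 12.5% gave -0.74 ± 0.10 (SE, adjusted p = 1.98e-05). On day 9 the 12.5% call was lost for VARS1 without 100% replicate 2 or 3 or 12.5% replicate 2 or 3 (-0.35 to -0.23), and on day 6 the call without histidine was lost for VARS1 (0.43, adjusted p = 0.0964) without the keratin-rich libraries.

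**Figure D2:**
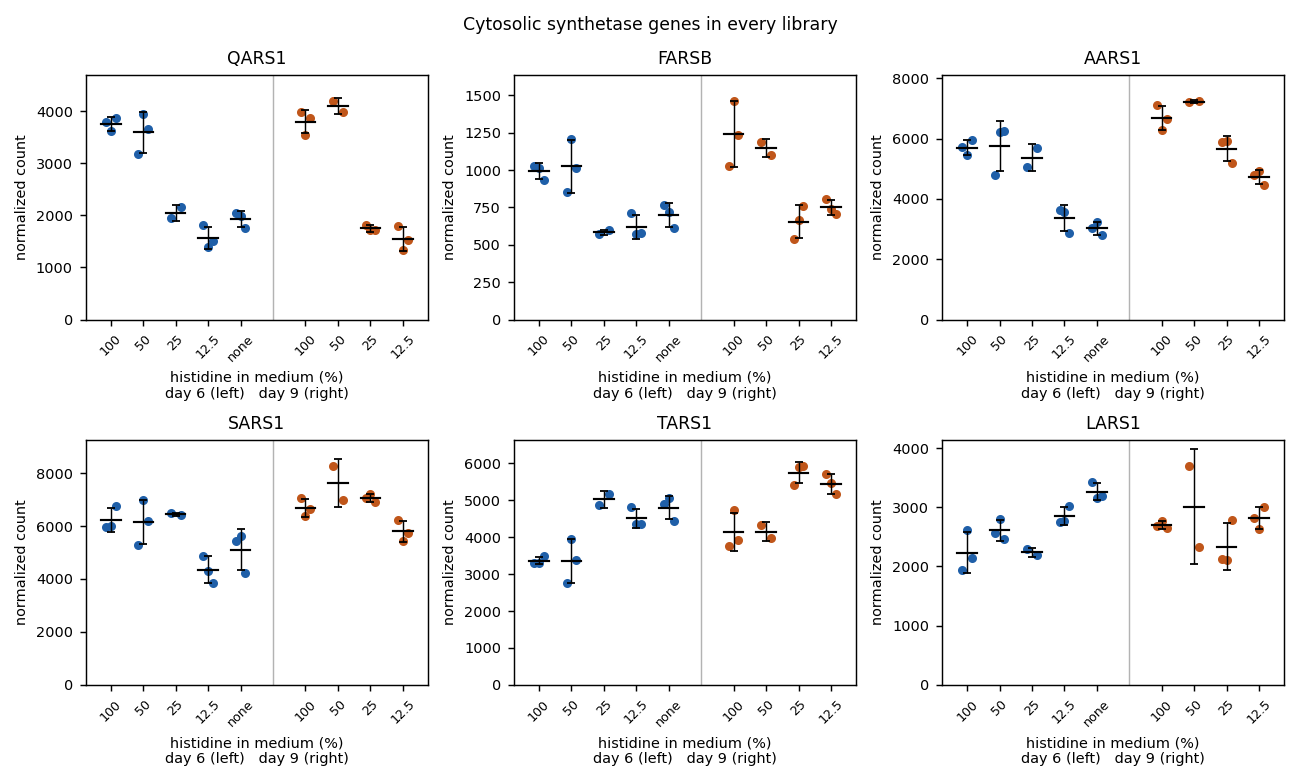
Normalized counts of selected cytosolic synthetase genes in each library (points) by histidine level on days 6 and 9, with horizontal bars at group means and vertical bars of 1 SD. QARS1, FARSB and AARS1 have their 12.5% libraries below the controls of both days, and TARS1 has them above.

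The remaining cytosolic genes passed in 1 comparison or none. CARS1, GARS1, IARS1, NARS1 and RARS1 did not pass in any comparison of 25% or less with 100%, with log2 changes between -0.31 and 0.42, and EPRS1 passed only at 25% on day 9 (log2 change -0.24 ± 0.08 SE, adjusted p = 0.0372). The EPRS1 call was lost without the keratin-rich libraries (-0.26, adjusted p = 0.187), after upper-quartile rescaling (-0.22, adjusted p = 0.0511) and in single omissions, EPRS1 without 100% replicate 2 or 3 or 25% replicate 1 or 2 (-0.26 to -0.18). CARS1, the cysteinyl enzyme, ran from 2120.2 to 3008 over all 25 libraries, the narrowest relative range of the 33 genes at 1.42-fold from lowest to highest.

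A short sequence bound by C/EBP-ATF heterodimers, among them ATF4, was looked for in the promoters. RefSeq windows of 300 bases, from 250 before to 50 after the start site, were present for 28 of the 33 genes (LARS1, VARS1, YARS1, AARS2 and VARS2 had no entry). The motif TGATGCAA on either strand lay in the windows of 6 genes, all cytosolic. It lay in 0.92% of 27305 promoters of the same length, in 6 of 15 cytosolic windows and in 0 of 13 mitochondrial ones. The 6 stretches of 30 bases are shown because they give the letters around the motif in each gene, with the motif in capitals (read as TTGCATCA where it lies on the other strand). They are at chr16:70289675-70289704 for AARS1 on the minus strand, chr11:3057407-3057436 for CARS1 on the minus strand, chr9:92293692-92293721 for IARS1 on the minus strand, chr12:57488053-57488082 for MARS1 on the plus strand, chr18:57621804-57621833 for NARS1 on the minus strand and chr5:33440956-33440985 for TARS1 on the plus strand, in GRCh38.p14.
AARS1: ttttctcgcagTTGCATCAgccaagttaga
CARS1: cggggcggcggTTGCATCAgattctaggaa
IARS1: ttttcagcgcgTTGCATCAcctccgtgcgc
MARS1: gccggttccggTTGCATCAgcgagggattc
NARS1: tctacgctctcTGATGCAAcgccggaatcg
TARS1: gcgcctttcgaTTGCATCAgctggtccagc
Counted from the first base of the motif, these lie at -187, -2, -13, -4, 15 and 3 relative to the start site of the window in that order. For TARS1 that start site lies inside the RefSeq locus given above, which begins at 33440696, and not at its first base.

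The genes that carry the motif did not move one way. TARS1 rose in each comparison from 25% down, MARS1 rose at 25% on both days, AARS1 fell at 12.5% on both days and without histidine, and CARS1, IARS1 and NARS1 did not pass against 100%. On day 6 at 12.5% their log2 changes were -0.77 for AARS1, -0.04 for CARS1, -0.20 for IARS1, 0.08 for MARS1, -0.00065 for NARS1 and 0.42 for TARS1. A match of letters is not a bound site, and genes without the letters in this window may carry them elsewhere. Of 13 cytosolic genes usually listed as ATF4 targets, 2 rose and 2 fell at 12.5% on day 6 (median -0.09), and 4 rose and 2 fell without histidine (median 0.14). Of the 5 others, FARSA, FARSB, KARS1, QARS1 and RARS1, 0 rose and 4 fell at 12.5% (median -0.51), and 0 rose and 2 fell without histidine (median -0.24). As a background, rises made up 11.7% and falls 15.3% of the 18799 genes tested at 12.5%. Without histidine these shares were 13.3% and 16.5%. The second group holds only 5 genes, among them both subunits of the phenylalanyl enzyme. Its FARSA call at 12.5% was lost without 100% replicate 3. The 2 groups were not tested against each other or against that background. The E-box CACGTG, either strand, was in 7.43% of promoters and in those of IARS1, CARS2, EARS2 and MARS2.

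Among mitochondrial genes TARS2, the threonyl enzyme (chr1:150487419-150507602), had the largest falls at the lowest levels. It had 627, 599 and 602 at 100% on day 6, 423 and 399 at 25%, 343, 305 and 371 at 12.5% and 373, 321 and 330.1 without histidine. TARS2 counts on day 9 were 671, 658 and 707 at 100%, 481, 486 and 494 at 25% and 391, 376 and 383 at 12.5%. All libraries at 25% or less lay below their controls. The changes were -0.57 ± 0.10 (SE, adjusted p = 0.000314) at 25%, -0.85 ± 0.09 (SE, adjusted p = 2.56e-07) at 12.5% and -0.84 ± 0.09 (SE, adjusted p = 9.26e-08) without histidine on day 6, and -0.48 ± 0.09 (SE, adjusted p = 0.000373) and -0.82 ± 0.09 (SE, adjusted p = 4.78e-07) on day 9. The day 9 change at 25% did not pass without the keratin-rich libraries (-0.48, adjusted p = 0.0527).

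SARS2, the seryl enzyme (chr19:38915266-38930763), also fell at each level from 25% down. Day 6 counts were 452, 441 and 506 at 100%, 340.1 and 292 at 25%, 292, 266 and 350.4 at 12.5% and 331, 309 and 323 without histidine. Day 9 counts were 410.1, 556 and 515 at 100%, 338, 270.4 and 376 at 25% and 293, 330.4 and 345 at 12.5%. The libraries at 25% or less were below the controls of their day on both days. Its log2 changes were -0.53 ± 0.14 (SE, adjusted p = 0.0051) without histidine, -0.63 ± 0.14 (SE, adjusted p = 0.00171) and -0.60 ± 0.14 (SE, adjusted p = 0.00309) at 12.5% on days 6 and 9, and -0.56 ± 0.16 (SE, adjusted p = 0.0176) and -0.59 ± 0.14 (SE, adjusted p = 0.00409) at 25%. VARS2, the valyl enzyme, had 1983, 2111 and 2038 at 100%, 1441 and 1388 at 25%, 1776, 1633 and 1662 at 12.5% and 1747, 1795 and 1716 without histidine on day 6, and the 25% libraries were the lowest. It fell, with a log2 change of -0.53 ± 0.09 (SE, adjusted p = 0.000152) at 25%, -0.27 ± 0.08 (SE, adjusted p = 0.00955) at 12.5% and -0.22 ± 0.08 (SE, adjusted p = 0.0311) without histidine. VARS2 also fell on day 9, with a log2 change of -0.30 ± 0.08 (SE, adjusted p = 0.00571) at 12.5% from 2001, 2114 and 2165 to 1795, 1653 and 1637. Single libraries ended the calls of SARS2 without 100% replicate 3 or 25% replicate 3 (-0.50 to -0.45) at 25% on day 6 and of VARS2 without 100% replicate 2 or 3 or no-histidine replicate 1 or 3 (-0.22 to -0.20) in the no-histidine comparison. Without the keratin-rich libraries SARS2 (-0.68, adjusted p = 0.0651) at 25% and VARS2 (-0.27, adjusted p = 0.0987) at 12.5% on day 6 and VARS2 (-0.22, adjusted p = 0.175) without histidine did not pass. After upper-quartile rescaling VARS2 (-0.19, adjusted p = 0.0725) at 12.5% on day 6 and VARS2 (-0.15, adjusted p = 0.156) without histidine did not pass, the latter also not after quantile normalization (-0.16, adjusted p = 0.109).

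FARS2 and CARS2, the mitochondrial phenylalanyl and cysteinyl enzymes, and AARS2 and IARS2, the alanyl and isoleucyl ones, fell in some comparisons. FARS2 had 226, 233 and 255 at 100% on day 6 and 146, 122 and 145 at 12.5% (log2 change -0.79 ± 0.19 SE, adjusted p = 0.00257), with no overlap. CARS2 had 445, 466 and 411 at 100%, 239 and 250.5 at 25%, 362, 308 and 336 at 12.5% and 458, 436 and 470.4 without histidine. CARS2 fell, with a log2 change of -0.84 ± 0.14 (SE, adjusted p = 0.000271) at 25% and -0.40 ± 0.13 (SE, adjusted p = 0.0245) at 12.5%, and its no-histidine libraries overlapped the controls. At 25% on day 9 it was 199, 299 and 273 against 390.1, 421 and 425 (log2 change -0.70 ± 0.13 SE, adjusted p = 0.000375). AARS2 fell at 12.5% on both days, from 971, 1006 and 849.7 to 821, 727 and 700.3 on day 6 (log2 change -0.33 ± 0.09 SE, adjusted p = 0.009) and from 971, 1064 and 1038 to 726, 882 and 804 on day 9 (log2 change -0.35 ± 0.09 SE, adjusted p = 0.00688). IARS2 fell without histidine, with a change of -0.24 ± 0.09 (SE, adjusted p = 0.0399), from 1788, 1777 and 1914 to 1559, 1643 and 1449.6. IARS2 also fell at 12.5% on day 6, from a mean of 1826 to 1521. That 12.5% call was lost after upper-quartile rescaling (-0.18), without the keratin-rich libraries (-0.33) and without 100% replicate 3 or 12.5% replicate 1 or 2 (-0.25 to -0.23). On day 6 single libraries ended, at 12.5%, CARS2 without 100% replicate 1 or 2 or 12.5% replicate 2 (-0.39 to -0.34) and AARS2 without 100% replicate 2 (-0.28), and without histidine IARS2 without 100% replicate 1, 2 or 3 or no-histidine replicate 1 or 3 (-0.26 to -0.19), and on day 9 AARS2 without 12.5% replicate 1 (-0.28). Without the keratin-rich libraries AARS2 (-0.18, adjusted p = 0.446) and CARS2 (-0.30, adjusted p = 0.273) at 12.5% on day 6, IARS2 (-0.31, adjusted p = 0.0745) without histidine and CARS2 (-0.46, adjusted p = 0.117) at 25% on day 9 did not pass. After upper-quartile rescaling AARS2 (-0.24, adjusted p = 0.0669) and CARS2 (-0.31, adjusted p = 0.0798) at 12.5% on day 6 and IARS2 (-0.16, adjusted p = 0.131) without histidine did not pass, nor did AARS2 (-0.24, adjusted p = 0.0768), CARS2 (-0.31, adjusted p = 0.0857) and IARS2 (-0.18, adjusted p = 0.068) after quantile normalization.

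YARS2, the mitochondrial tyrosyl enzyme (chr12:32746544-32755897), rose without histidine and at 25%. It had 307, 311 and 337 at 100% on day 6, 465 and 430.5 at 25%, 393, 335 and 452 at 12.5% and 444, 478 and 459.8 without histidine. On day 9 it had 342, 411 and 409.7 at 100%, 519.6, 599 and 659 at 25% and 577, 501 and 509 at 12.5%. On day 6 the 25% and no-histidine libraries lay above every control and the lowest 12.5% library lay within them. Its changes were 0.53 ± 0.13 (SE, adjusted p = 0.00255) without histidine, 0.49 ± 0.14 (SE, adjusted p = 0.0228) at 25% on day 6, and 0.45 ± 0.13 (SE, adjusted p = 0.0136) and 0.61 ± 0.13 (SE, adjusted p = 0.00141) at 12.5% and 25% on day 9. MARS2, the methionyl enzyme, was low at 25% and high without histidine, with 609, 507 and 552 at 100%, 390.2 and 347 at 25% and 689, 685 and 712 without histidine on day 6. It fell, with a log2 change of -0.59 ± 0.11 (SE, adjusted p = 0.00104) at 25% and rose, with a log2 change of 0.33 ± 0.10 (SE, adjusted p = 0.0183) without histidine, and no histidine against 25% gave 0.92 ± 0.11 (SE, adjusted p = 1.44e-06). PARS2, the prolyl enzyme, rose without histidine from 152, 130.2 and 135 to 185, 193 and 169.5 (log2 change 0.39 ± 0.14 SE, adjusted p = 0.0392). LARS2, the leucyl enzyme, rose at 12.5% on day 6 from 535, 587 and 517 to 618, 933 and 846 (log2 change 0.53 ± 0.17 SE, adjusted p = 0.0248). On day 6 single libraries ended MARS2 without 100% replicate 2 or no-histidine replicate 3 (0.26 to 0.31) and PARS2 without 100% replicate 2 or 3 or no-histidine replicate 1 or 2 (0.35 to 0.38) without histidine, LARS2 without 100% replicate 1 or 3 or 12.5% replicate 2 or 3 (0.41 to 0.51) at 12.5% and YARS2 without 100% replicate 1 or 2 or 25% replicate 2 or 3 (0.44 to 0.55) at 25%, and on day 9 YARS2 without 100% replicate 1 or 12.5% replicate 1 (0.36 to 0.39) at 12.5%. Without the keratin-rich libraries YARS2 (0.45, adjusted p = 0.0798), MARS2 (0.33, adjusted p = 0.143) and PARS2 (0.43, adjusted p = 0.152) without histidine, LARS2 (0.61, adjusted p = 0.119) at 12.5% and YARS2 (0.41, adjusted p = 0.239) at 25% did not pass on day 6.

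EARS2, NARS2, RARS2 and WARS2, for glutamate, asparagine, arginine and tryptophan, passed in none of these comparisons. EARS2 also starts the making of mitochondrial glutaminyl-tRNA, which has no synthetase of its own. Its counts ran from 53.1 to 263 over the 25 libraries, the widest relative range of the 33 genes. At 100% on day 9 they were 67.6, 259 and 263, and at 25% on day 6 they were 124 and 53.1 against 176, 182 and 166 at 100% (log2 change -1.09 ± 0.52 SE, adjusted p = 0.188). The spread inside a group was wide beside the difference between groups.

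**Figure D3:**
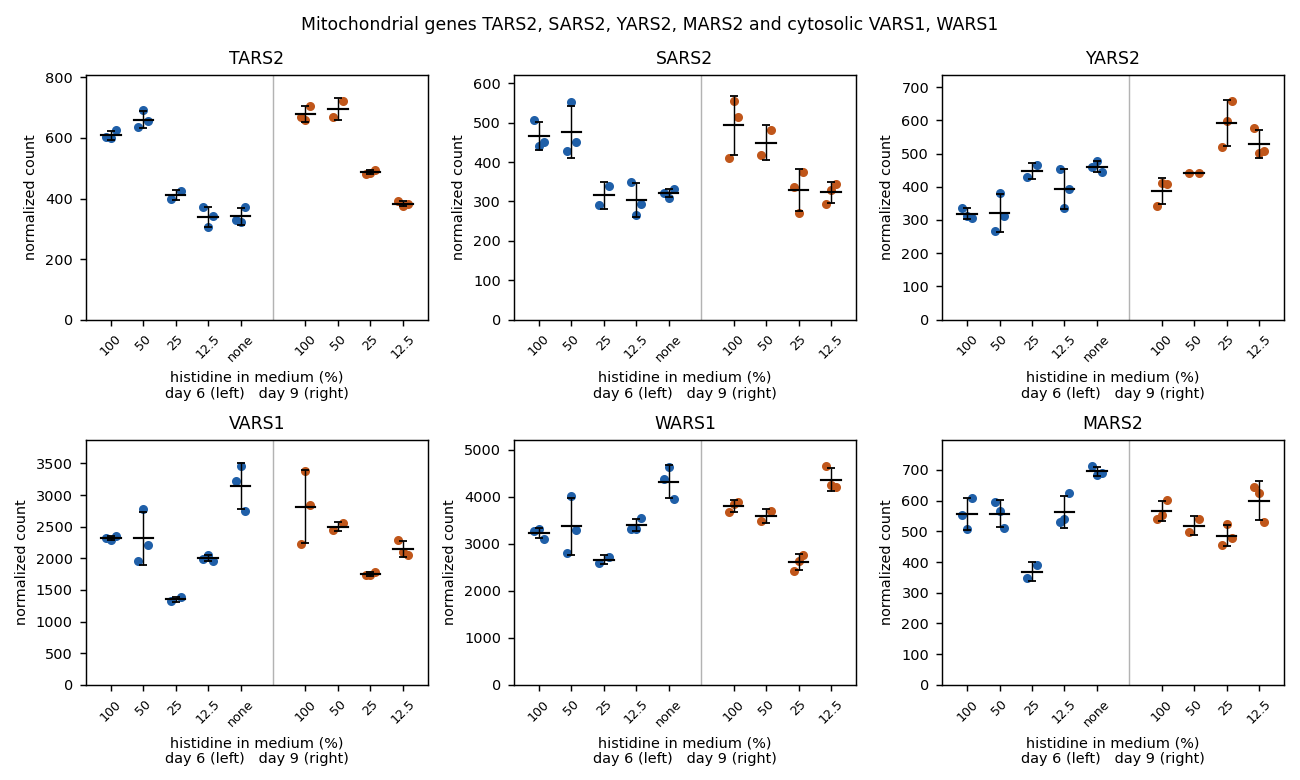
Normalized counts of selected synthetase genes of both compartments in each library (points) by histidine level on days 6 and 9, with horizontal bars at group means and vertical bars of 1 SD. TARS2 and SARS2 lie below the controls at 25% and less, and VARS1 and MARS2 have their lowest day 6 mean at 25% and their highest without histidine.

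For 12 amino acids the list holds 1 cytosolic and 1 mitochondrial gene. Over the 5 comparisons of 25% or less with 100%, which share controls within a day, the 60 pair cases had 10 with both members called in the same direction, 7 with both called in opposite directions, 19 with 1 member called and 24 with neither called. The opposite cases were the threonyl pair in all 5 comparisons and the valyl and methionyl pairs in 1 each. Of all genes 13.7% to 29.8% were called in these comparisons. Differences between the members were not tested. The threonyl pair had TARS1 higher and TARS2 lower in each comparison of 25% or less with 100%. The TARS1 to TARS2 count ratio was 5.52 ± 0.03 (SD, n = 3) at 100% on day 6, 5.07 ± 0.69 (n = 3) at 50%, 12.2 ± 0.03 (n = 2) at 25%, 13.3 ± 0.85 (n = 3) at 12.5% and 14.2 ± 2.00 (n = 3) without histidine. On day 9 it was 6.11 ± 0.93 (n = 3) at 100%, 5.98 ± 0.67 (n = 2) at 50%, 11.8 ± 0.47 (n = 3) at 25% and 14.2 ± 0.62 (n = 3) at 12.5%. The groups at 50% or more and those at 25% or less did not overlap. That separation follows from the opposite calls of the 2 members and is not a separate result. No ratio was computed for the other pairs. The valyl pair was opposite without histidine, where VARS1 rose and VARS2 fell. That VARS2 call did not pass after upper-quartile rescaling or quantile normalization. Both valyl members fell at 25% on each day and at 12.5% on day 9. The methionyl pair was opposite at 25% on day 6, where MARS1 rose and MARS2 fell. Both alanyl genes fell at 12.5% on each day, and both seryl genes fell at 12.5% and without histidine on day 6. The tyrosyl genes both rose at 25% on each day, and the leucyl genes both rose at 12.5% on day 6.

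Summed over genes, cytosolic counts were 7.33 to 7.63 times the mitochondrial ones at 100% on day 6 and 9.19 to 9.38 times at 25%. The mitochondrial sum was 0.0581% to 0.0590% of all counts at 100% and 0.0465% to 0.0471% at 25%, while the cytosolic sum was 0.426% to 0.444% and 0.433% to 0.436%. On day 9 the cytosolic to mitochondrial ratio was 7.91 to 8.27 at 100%, 8.58 to 9.38 at 25% and 8.57 to 9.18 at 12.5%. At 12.5% and without histidine on day 6 the ratios were 7.30 to 7.67 and 7.38 to 8.31, which overlap the controls. By structural class, with EPRS1, which joins a class I and a class II enzyme, counted under class I, 2 of 19 class I genes rose and 4 fell at 12.5% on day 6, and 1 of 14 class II genes rose and 9 fell. Of the 7 genes in the multi-synthetase complex 1 rose and 2 fell there, and of the 11 other cytosolic genes 1 rose and 4 fell. Over all genes 11.7% rose and 15.3% fell in that comparison. The groupings by class and by complex were not tested, and their counts are given for that comparison alone.

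**Figure D4:**
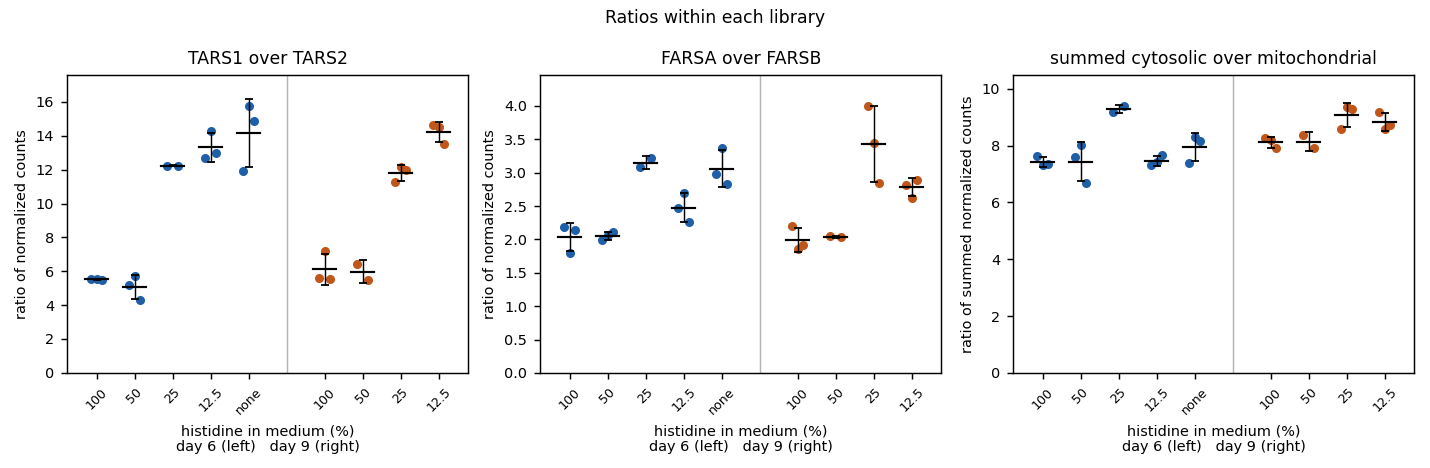
Count ratios in each library (points) by histidine level and day, with horizontal bars at group means and vertical bars of 1 SD, for TARS1 over TARS2, FARSA over FARSB and the cytosolic over the mitochondrial sum. TARS1 over TARS2 lies between 4.33 and 7.18 at 50% and 100% and at 11.3 or more at 25% or less.

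The levels below 100% were also compared with each other, and 3 of these comparisons (25% with 12.5% on each day and no histidine with 25%) were chosen after the values were seen. No histidine against 12.5% on day 6 called 7 of 33 genes (15.3% of all genes). FARSA was higher without histidine by 0.48 ± 0.11 (SE, adjusted p = 0.00448) and VARS1 by 0.64 ± 0.12 (SE, adjusted p = 0.000591), and both passed under every alternative. The count was 2 without 12.5% replicate 2, 2 without no-histidine replicate 3 and 3 without no-histidine replicate 2. For 25% against 12.5% on day 6, 11 genes were called (17.8% of all genes). AARS1 and SARS1 were higher at 25% by 0.68 ± 0.11 (SE, adjusted p = 0.000289) and 0.58 ± 0.12 (SE, adjusted p = 0.00237), and MARS2 was lower, with a change of -0.61 ± 0.11 (SE, adjusted p = 0.000828). That count was 4 and 5 without 25% replicate 2 or 3 and 6 without 12.5% replicate 1. On day 9 only WARS1, CARS2 and TARS2 were called (6.82% of all genes), CARS2 at -0.44 ± 0.13 and TARS2 at 0.35 ± 0.09, and 1 was left without 25% replicate 3, without 12.5% replicate 2 or without the keratin-rich libraries. No histidine against 25% on day 6 called 11 genes (27.2% of all genes), with CARS2 at 0.89 ± 0.14 (SE, adjusted p = 4.33e-05), WARS1 at 0.70 ± 0.11 (SE, adjusted p = 2.2e-05) and AARS1 at -0.82 ± 0.11 (SE, adjusted p = 5.88e-06). That count was 6 and 7 without 25% replicate 2 or 3.

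The 2 days were set side by side, since they share no library. At 12.5% AARS1, FARSB, KARS1, QARS1, AARS2, SARS2, TARS2 and VARS2 fell on both days and TARS1 rose on both, and none was called in opposite directions. At 25% FARSB, QARS1, VARS1, AARS2, CARS2, SARS2, TARS2 and VARS2 fell on both days and MARS1, TARS1, YARS1 and YARS2 rose on both. The AARS2 fall at 25% did not pass on day 6 without 25% replicate 2 or 3 (-0.42 to -0.40) or, without the keratin-rich libraries, on day 6 (-0.27, adjusted p = 0.377) and day 9 (-0.42, adjusted p = 0.0887). Across the 33 genes the log2 changes of the 2 days had Pearson's r = 0.865 at 12.5% and 0.872 at 25% and Spearman's rho = 0.854 and 0.867, as a description, since the genes share their libraries. The day by dose difference called 0 of the 33 genes by limma at either level (0.0638% and 0.00532% of all genes), and 1 member at each level had an unadjusted p under 0.05, LARS2 at 12.5% and MARS2 at 25%. The 95% interval of that difference was -0.34 to 0.28 for QARS1, -0.32 to 0.29 for TARS1, -0.23 to 0.28 for TARS2 and -0.03 to 0.57 for AARS1 at 12.5% (log2), so that changes of the 2 days inside those bounds were not distinguished.

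**Figure D5:**
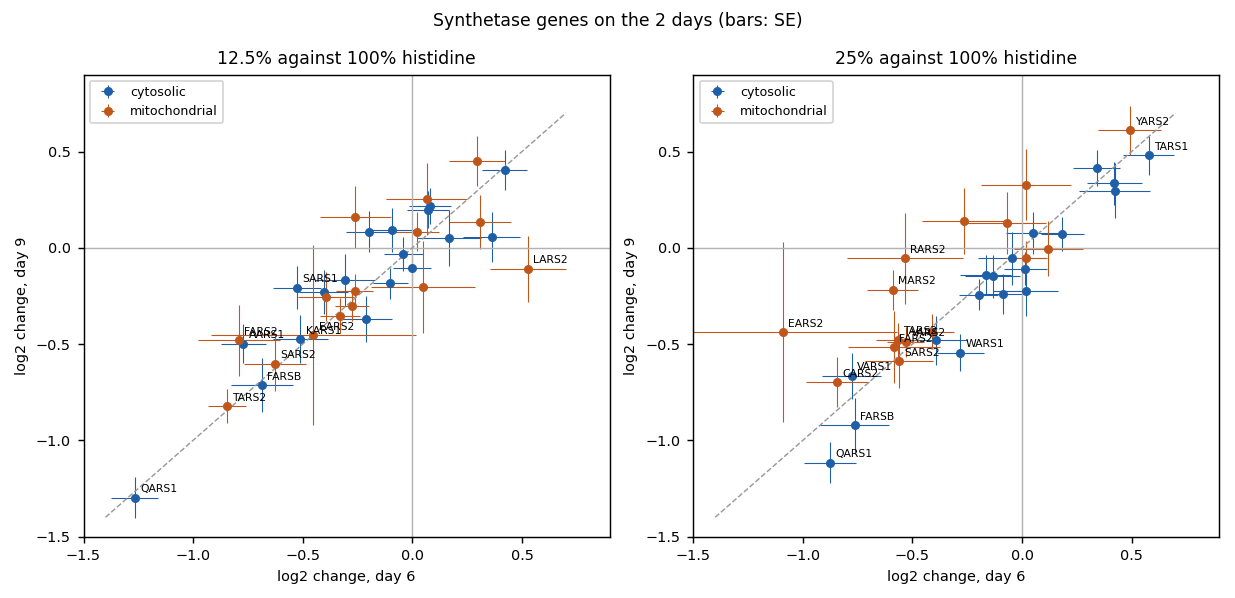
Log2 change on day 9 against log2 change on day 6 for the 33 synthetase genes (points) at 12.5% and at 25% histidine, each against 100% of its day. QARS1 is lowest on both axes at 12.5%, and 28 of 33 genes at 12.5% and 27 at 25% have the same sign on both days.

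At 50% histidine limma called 0 of the 33 genes on either day, and 0 had an unadjusted p under 0.05. Over all genes it called 0% on day 6 and 0.00532% on day 9, with 695 and 906 genes at an unadjusted p under 0.05. Between days at 100%, NARS1, the asparaginyl enzyme, rose, with a log2 change of 0.33 ± 0.09 (SE, adjusted p = 0.044) from 4209, 3956 and 3828 on day 6 to 4839.5, 5377 and 4868 on day 9, and PARS2 rose, with a log2 change of 0.63 ± 0.14 (SE, adjusted p = 0.0191). Of all genes 2.17% were called. The log2 change was above 0 for 18 of 18 cytosolic genes, with a median of 0.27, on a scaling where the median of all genes was 0.00 (-0.02 after upper-quartile rescaling and 0.01 after quantile normalization). Both calls were absent without 100% replicate 2 or 3 of day 6 or any 100% library of day 9, and 1 remained without 100% replicate 1 of day 6.

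HARS1, the cytosolic histidyl enzyme, had 1128, 1059 and 949 at 100% and 843, 825 and 915 at 12.5% on day 6, and fell, with a log2 change of -0.28 ± 0.09 (SE, adjusted p = 0.0232). HARS1 also fell at 12.5% on day 9, with a log2 change of -0.29 ± 0.09 (SE, adjusted p = 0.0228), and without histidine its change was -0.10 ± 0.09 (SE, adjusted p = 0.462). HARS2 passed in no comparison. Among the scaffold proteins of the multi-synthetase complex, EEF1E1 fell at 12.5% on day 6, from a mean of 278 ± 28.8 to 139 ± 12.9 (SD, n = 3 each, adjusted p = 5.44e-05). Of 20 other ATF4 targets, 3 rose and 6 fell at 12.5% on day 6, and 3 rose and 5 fell without histidine. Over all genes 11.7% rose and 15.3% fell at 12.5%, and 13.3% rose and 16.5% fell without histidine. The list was not tested against that background. TRIB3, a pseudokinase, had 10247, 10111 and 10669 at 100% and 3986, 4387 and 4745 at 12.5% and fell, with a log2 change of -1.25 ± 0.11 (SE, adjusted p = 2.46e-08). DDIT3, which encodes CHOP, fell, with a log2 change of -0.77 ± 0.11 (SE, adjusted p = 2.33e-05) at 12.5% and had a change of 0.05 ± 0.11 (SE, adjusted p = 0.773) without histidine. SLC7A11 and SLC3A2, the subunits of the cystine transporter, rose at 12.5% on day 6 by 0.89 ± 0.12 (SE, adjusted p = 7.18e-06) and 0.62 ± 0.16 (SE, adjusted p = 0.00438). CHAC1, a glutathione-degrading enzyme, rose at 25% on both days, with changes of 0.66 ± 0.19 (SE, adjusted p = 0.0222) and 0.59 ± 0.17 (SE, adjusted p = 0.0171). ASNS, asparagine synthetase, was low and variable, at 15.6, 45 and 8.92 at 100% and 51.8, 86.8 and 74.8 at 12.5% on day 6, and did not pass there (log2 change 1.84 ± 0.69 SE, adjusted p = 0.051).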

How the data were processed

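The deposited table holds signal values, gene-level normalized counts that the authors obtained with DESeq2 1.44.0 from kallisto 0.50.1 quantification on GRCh38, per the submitters' processing notes, which also list FastQC 0.11.9. For the annotation release and strand setting, the sources used here give nothing. Whole reads could not be recovered, with at best 76.2% of a library's values under 20 within 0.05 of a whole multiple, so no count model was run. Scaling by size factors hides differences in total RNA per cell, and reads may be shared with pseudogene copies, which 11 of the 33 genes have by name. In RefSeq 20 of the 33 overlap another gene. A no-histidine library, replicate 1, is titled day 6 and has a time label of day 9. It stayed at day 6, and the fit was also made without it. The series text names Day 3 and Day 6, and days here follow the samples.

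Genes at 10 or more in at least 2 libraries (18799) were fitted on log2(value + 1), so that fold changes of low genes are understated, with limma 3.58.1 in R 4.3.3. The fit had a mean trend, 9 groups and 16 residual degrees of freedom. Tests were two-sided, with Benjamini-Hochberg adjustment inside each comparison and a threshold of 0.05. Alternatives were other pseudocounts, filters, scalings, weights and trends, a replicate block, fewer groups, and leaving out single libraries or those rich in keratins. The members and lists were chosen with earlier results of these data known, and 3 comparisons were added after the values were seen. Named in full are up to 4 called rises and 4 falls per compartment in the comparisons of no histidine and 12.5% with 100%, up to 2 each way elsewhere, both members of an amino acid pair, and fixed related genes. Motif letters and loci come from RefSeq on GRCh38.p14, matched by symbol. Plots come from matplotlib 3.10.9 (Python 3.11.15).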

Additional observations from a re-analysis of the deposited data

How the results depend on the processing

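Of 104 calls of a synthetase in a comparison, 52 passed with the same direction under every alternative, 259 of 1733 alternative values fell short of the threshold, and none reversed. Without the keratin-rich libraries the number of synthetases called was 8 without histidine, 10 at 12.5% and 8 at 25% on day 6, 9 at 25% on day 9, 0 between days and 1 for 25% against 12.5% on day 9. This alternative leaves fewer samples. With array weights it was 1 at 50% on day 6, 13 for no histidine against 12.5%, 4 between days and 19 for 25% against 12.5% on day 6. No mean trend gave 4 for no histidine against 12.5% and 1 between days, and no filter gave 1 between days. Fitting the compared groups alone gave 4 for no histidine against 12.5% and 7 for 25% against 12.5% on day 6. Quantile normalization gave 6 for 25% against 12.5% on day 9. The cause was not tested for these.

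Leaving out 1 library at a time gave 10 to 14 calls without histidine, 12 to 14 at 12.5% and 8 to 12 at 25% on day 6 (8 without 25% replicate 3), 9 to 10 at 12.5% and 13 to 14 at 25% on day 9. It gave 2 to 9 for no histidine against 12.5%, 0 to 1 between days, 4 to 11 and 1 to 3 for 25% against 12.5% on days 6 and 9, and 6 to 11 for no histidine against 25%. Same-numbered libraries did not deviate together (correlations -0.128 to 0.0819, 0 of 92 pairs above 0.1), and 7 of 25 libraries correlated best with their own number. With the replicate block 1 gene was called between days, and no other count moved by over 1.5 times. Depth is known only as totals of normalized counts.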
